A study of Caenorhabditis elegans with 9 samples.

Results

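The region described here is the middle of the X chromosome of Caenorhabditis elegans, taken as all genes of the X chromosome whose start lies from 6 Mb up to 12 Mb on the WS220 genome. Of the 1021 genes listed there, 765 (74.9%) had 10 or more counts in 3 or more of the 9 libraries and are the members analysed. The first of them is sups-1 (X: 6004448 to 6007008) and the last is the kinase gene sma-5 (X: 11997457 to 12005024), whose span runs past the boundary. The nearest listed genes outside are F22F4.4 (X: 5999573 to 6001499) and nmat-1 (X: 12014186 to 12016108). The choice used position and a minimum count only, not a difference between strains, but was made with earlier results of these data known. By the same minimum, 690 of 927 genes left of 6 Mb (74.4%), 618 of 870 genes right of 12 Mb (71.0%) and 11344 of 17558 genes on chromosomes I to V (64.6%) were kept.

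Polyadenylated RNA of mixed embryos was sequenced in 9 libraries, 3 from each of 3 strains: wild type (N2), MK14 (genotype hsp::dpy-27::gfp), which makes DPY-27::GFP, and KB01 (genotype hsp::dpy-27[EQ-TR]::gfp), which makes the EQ mutant of the same fusion. Parents of every strain, wild type included, were held at 35°C for 30 min and then left at room temperature for 2 h before bleaching released the embryos. Each transgene is a single copy inserted on chromosome II behind the heat-inducible hsp-16.41 promoter, and the strains still carry their own dpy-27 gene, so the tagged protein was added to the endogenous one. The EQ form carries a glutamate-to-glutamine change in the Walker B motif, which blocks ATP hydrolysis in related proteins. The labels give neither the ages of the embryos nor whether the libraries of a strain came from separate cultures, so the tests measure the spread between these libraries only.

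In hermaphrodites of this species, which have a pair of X chromosomes against the single X of males, transcription from each X is lowered by a dosage compensation complex. Its core is condensin DC, a condensin in which DPY-27 takes the place of the usual SMC4 subunit and works with the SMC2 homolog MIX-1. SDC-2 and its partners bring the complex to recruitment sites scattered along the X, from which it spreads over the chromosome. Loss of condensin DC is known to raise X-linked transcripts relative to autosomal ones, which is why the X is read here against the autosomes. The X chromosome is also known to hold few genes of the germline and many genes used in muscle, nerve and other somatic tissues.

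Reads on genes ranged from 7062182 to 23536013 per library, with the wild-type libraries and KB01 replicate 3 the deepest. Reads assigned to no gene made up 55.2% to 58.2% of the wild-type files, 12.6% to 13.5% of the MK14 files and 12.8% to 21.2% of the KB01 files. All wild-type libraries and KB01 replicate 3 share one prefix in the library names and the remaining 5 libraries share another, and the meaning of the prefix is not given in the sources used here. The reads on dpy-27, which include those of the transgene, came to 462, 471 and 485 CPM (counts scaled to library size) in wild type, 803, 449 and 819 CPM in MK14 and 591, 516 and 900 CPM in KB01. They were above every wild-type library in all transgenic libraries but MK14 replicate 2, and neither transgenic strain passed the test against wild type (log2 fold change 0.55 ± 0.24 and 0.50 ± 0.24, fitted standard error, edgeR adjusted p = 0.161 and 0.206). Over 19 alternatives the edgeR or DESeq2 adjusted p ran from 0.0258 to 0.321 in MK14 and from 0.0462 to 0.625 in KB01. MK14 passed without its replicate 2, at 0.78, and with the stage index described below as a term, at 0.80, and KB01 passed in a fit of its libraries and wild type alone, at 0.54. Without KB01 replicate 3 the KB01 value was 0.23. Marker genes of stage were found in every library: none of 21 maternal and 16 late-embryo markers, all autosomal, was at 0 in any library.

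Relative to the autosomes, the middle of the X was slightly higher in both transgenic strains than in wild type, but the libraries overlapped. The value of a library is the median, over the members, of each gene's log2 CPM minus its mean over the 9 libraries, less the same median over the autosomal genes. The 3 wild-type libraries stood at -0.10, -0.0098 and -0.17, averaging -0.094 ± 0.081 (SD, n = 3). Those of MK14 stood at 0.020, 0.26 and -0.14, averaging 0.045 ± 0.20 (SD, n = 3). Those of KB01 stood at 0.12, -0.029 and 0.10, averaging 0.065 ± 0.083 (SD, n = 3). MK14 alone thus spanned from almost the lowest to the highest of the 9 values, and in each comparison at least 1 library of the higher strain lay below a library of the other.

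From the fit to all 9 libraries, the median log2 fold change of the 765 members exceeded that of the autosomal genes by 0.14 in MK14 against wild type (two-sided exact permutation over libraries, p = 0.4). The excess was 0.17 in KB01 against wild type (exact permutation p = 0.2). Between KB01 and MK14 it was 0.031 (exact permutation p = 1). With 3 libraries against 3 the smallest p this test can give is 0.1, and after Benjamini-Hochberg adjustment over the 3 comparisons the values were 0.6, 0.6 and 1. Both comparisons with wild type use the same wild-type libraries, so they are not independent. Leaving out MK14 replicate 2 lowered the first excess to 0.033, and leaving out MK14 replicate 3 raised it to 0.22. The difference between the transgenic strains was 0.14 without MK14 replicate 2 and -0.055 without MK14 replicate 3, so its direction rested on single libraries.

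**Figure D1:**
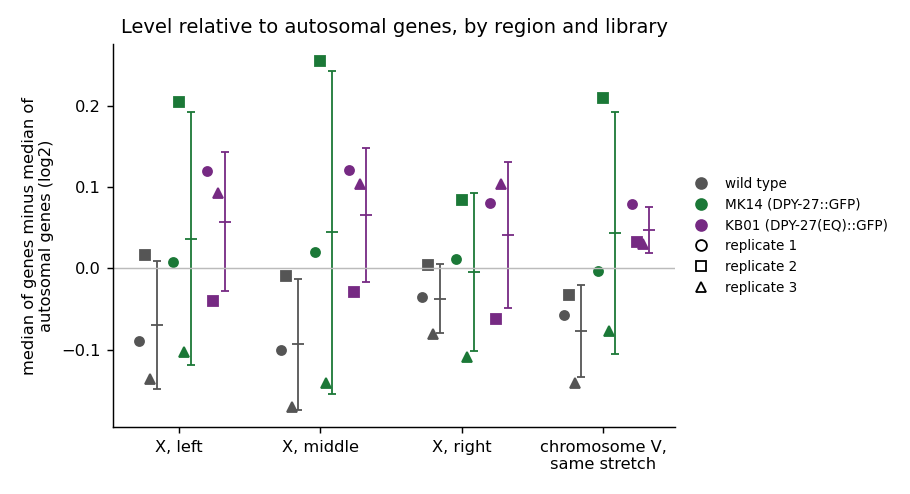
Level of each library relative to the autosomal genes (log2, vertical axis) for the left, middle and right of the X and the same stretch of chromosome V, with points for libraries and bars for the mean and SD of each strain (n = 3). In the middle of the X, MK14 runs from -0.14 to 0.26 and overlaps both other strains.

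The rest of the X moved in the same direction and by less. Left of 6 Mb the excess over the autosomes was 0.062 in MK14 and 0.14 in KB01, each against wild type, and right of 12 Mb it was 0.032 and 0.064. The difference of the shifts, middle minus left, was 0.076 in MK14 against wild type (exact permutation p = 0.4) and 0.027 in KB01 against wild type (exact permutation p = 0.1). Per library, the middle minus the left was -0.012, -0.026 and -0.034 in wild type, 0.012, 0.050 and -0.038 in MK14, and 0.0011, 0.011 and 0.011 in KB01. Every KB01 library was therefore above every wild-type library, by amounts of a few hundredths of a log2 unit, and MK14 spanned both.

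Against the right of the X the middle stood out a little more. The difference of the shifts was 0.11 in MK14 (exact permutation p = 0.2) and 0.10 in KB01 (exact permutation p = 0.1), each against wild type. Per library, the middle minus the right was -0.065, -0.014 and -0.090 in wild type, 0.0085, 0.17 and -0.032 in MK14, and 0.041, 0.033 and -0.00020 in KB01. Again all KB01 libraries lay above all wild-type libraries. Between the transgenic strains the middle differed from the left by -0.017 and from the right by -0.013 (exact permutation p = 1 and 0.9). Over the 6 tests of the middle against its flanks, the adjusted p was 0.3 at the lowest, so the middle was not shown to differ from the rest of the X.

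The same stretch of the autosomes gives a scale for these values. On chromosome V the genes starting from 6 to 12 Mb exceeded all autosomal genes by 0.088 in MK14 and 0.13 in KB01 against wild type. On chromosomes I to IV the same stretch gave -0.035 to 0.056 and -0.051 to 0.062. With chromosome V as the reference in place of all autosomes, the excess of the middle of the X was 0.086 and 0.079. The value for the middle of the X was thus the highest of the 6 chromosomes in both comparisons, with chromosome V next.

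The libraries also differed in an index of stage, which was high in the libraries where the middle of the X was high. A stage index was taken as the mean log2 CPM of the 16 late-embryo markers of muscle and epidermis minus that of the 21 maternal markers. The markers were chosen with earlier results of these data known. The index was 2.71, 3.18 and 2.04 in wild type, 3.54, 4.79 and 2.88 in MK14, and 4.16, 3.38 and 3.92 in KB01. MK14 replicate 2 had the highest index and wild-type replicate 3 the lowest, and all KB01 libraries were above all wild-type libraries. The summed level of the maternal markers ran from 1677 to 3025 CPM in wild type, 889 to 2251 CPM in MK14 and 1164 to 1598 CPM in KB01. That of the late-embryo markers ran from 19489 to 23058 CPM in wild type, 18397 to 26952 CPM in MK14 and 17991 to 24918 CPM in KB01, so the strains overlapped in it. As mean log2 CPM the late markers were at 8.43, 8.47 and 8.15 in wild type, 8.69, 9.22 and 8.43 in MK14 and 8.99, 8.53 and 8.96 in KB01. On that scale MK14 overlapped wild type and every KB01 library was above it. In RNA from whole embryos, fewer cells of a type and less RNA per cell cannot be told apart.

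Across the 9 libraries the value of the middle of the X rose with the stage index, with Pearson's r = 0.973 (exact permutation p = 3.58e-05) and Spearman's rho = 0.967 (exact permutation p = 0.000165). Permutations of this relation ran over the 9 libraries without regard to strain, so their p values also take in differences between strains. Without the 2 libraries farthest from the median index, MK14 replicate 2 and wild-type replicate 3, r was 0.96. The 3 libraries of each strain stood in the same order on both measures in all 3 strains. The left of the X gave r = 0.964 and the right r = 0.832, and over these 3 relations the adjusted exact permutation p values for r were 8.68e-05 for the left and the middle and 0.00518 for the right. The prefix groups hold 5 and 4 libraries, fewer than a correlation is given for here, and within each the libraries stood in the same order on both measures. With the index as a term in the fit, the excess of the middle of the X over the autosomes was -0.078 in MK14 and -0.034 in KB01 against wild type, so the direction turned, and it was 0.024 between the transgenic strains. Strain and stage are partly aligned in these libraries, and their parts cannot be told apart.

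**Figure D2:**
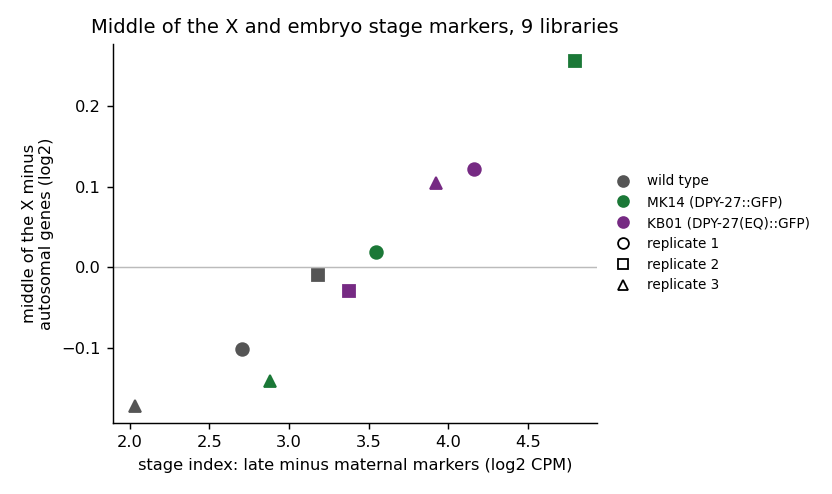
Value of the middle of the X relative to the autosomes (log2, vertical axis) against the stage index of the same library (log2 CPM, horizontal axis), 1 point per library and 1 colour per strain. The points rise together from wild-type replicate 3 (index 2.04) to MK14 replicate 2 (index 4.79), with r = 0.973.

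Along the region the difference from wild type was spread over the whole stretch and had no single peak. In 12 steps of 0.5 Mb, each holding 48 to 78 members, the median excess over the autosomes was above 0 in 12 of 12 steps in MK14 against wild type. It ran from 0.0083 in the step from 11 Mb to 0.25 in the step from 6.5 Mb. In KB01 against wild type it was again above 0 in 12 of 12 steps, from 0.089 in the step from 9 Mb to 0.32 in the step from 6.5 Mb. Among the 164 autosomal steps of the same length with 20 or more genes, 50% and 47.6% were above 0, and the values ran from -0.32 to 0.25 and from -0.30 to 0.50.

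The step from 6.5 to 7 Mb (67 members), highest in both comparisons, shows how the libraries differ within a strain. Its values were -0.20, -0.034 and -0.24 in wild type, 0.091, 0.34 and -0.21 in MK14, and 0.18, -0.015 and 0.16 in KB01. All KB01 libraries were above all wild-type libraries, narrowly so for replicate 2, while MK14 replicate 3 was as low as wild type. In all, 3 of the 12 steps had every KB01 library above every wild-type library, against 17.1% of the autosomal steps. No step did so in MK14, against 11% of the autosomal steps. Every library was lower in 0 of the 12 steps in either strain, against 7.93% and 17.7% of the autosomal steps. The smallest exact permutation p of a step was 0.1, and the smallest value adjusted over the 12 steps was 0.218. The last step, from 11.5 to 12 Mb, had the tightest wild-type values, at -0.099, -0.086 and -0.093, and there the KB01 values of 0.081, 0.0077 and 0.047 were all higher.

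Between the transgenic strains 9 of 12 steps were above 0, from -0.13 in the step from 10.5 Mb to 0.073 in the step from 6 Mb, and no step had libraries that did not overlap, against 2.44% of the autosomal steps in each direction. In the lowest of them the MK14 values were 0.14, 0.29 and -0.12 against 0.081, -0.060 and 0.084 in KB01. The number of steps above 0 turned on single libraries: without MK14 replicate 3 it was 16.7% of the steps and without MK14 replicate 2 it was 100%. Without MK14 replicate 2, 58.3% of the steps were above 0 in MK14 against wild type.

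**Figure D3:**
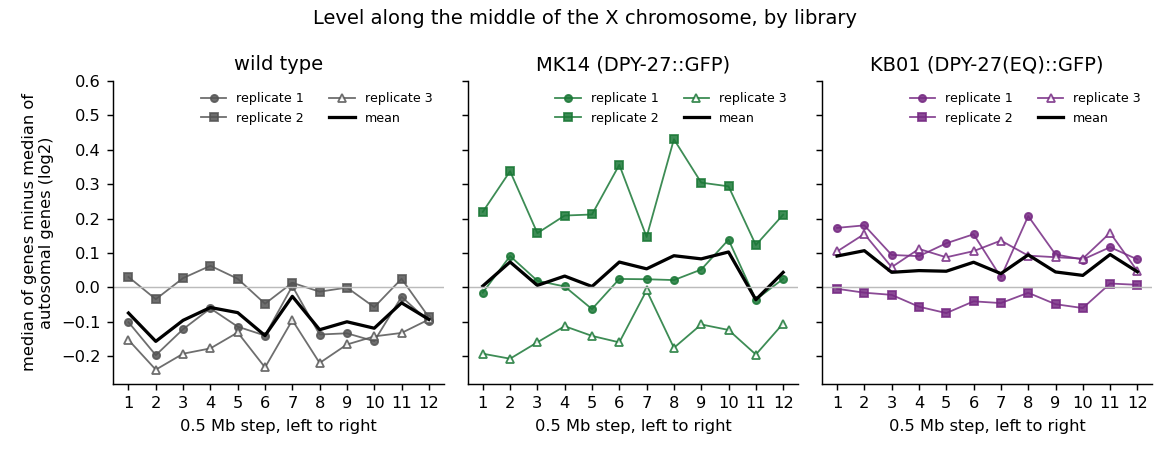
Median of the members in each of 12 steps of 0.5 Mb, left to right along the middle of the X (horizontal axis), relative to the autosomal genes (log2, vertical axis), with a line for each library and a black line for the mean of each strain. MK14 replicate 2 is the highest line in 11 of the 12 steps, at 0.15 to 0.43 there, and wild-type means stay below 0 in every step.

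Seen gene by gene, the difference was a small displacement of the whole distribution. Against wild type, 473 of the 765 members (61.8%) in MK14 and 503 (65.8%) in KB01 had a fitted log2 fold change above the autosomal median, and 433 (56.6%) did so between the transgenic strains. Relative to that median, the central range of the members (the 25th to the 75th percentile) ran from -0.20 to 0.43 in MK14, against -0.32 to 0.28 for autosomal genes. In KB01 it ran from -0.14 to 0.46, against -0.29 to 0.30. Members more than 1 log2 unit from the autosomal median were about as frequent as on the autosomes, at 9.28% against 8.45% in MK14 and 6.41% against 6.97% in KB01.

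The excess did not depend on the level of the genes in a regular way. In the members with the lowest, middle and highest mean TPM (a level scaled for gene length and library size), 255 genes each and compared with autosomal genes of the same range, it was 0.11, 0.13 and 0.094 in MK14. In KB01 it was 0.11, 0.17 and 0.16. The members as a whole were expressed below the autosomal genes: their median TPM was 9.80 to 10.7 in wild type, 10.5 to 14.1 in MK14 and 12.2 to 13.4 in KB01, while the autosomal median lay between 16.8 and 21.8 over the 9 libraries.

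**Figure D4:**
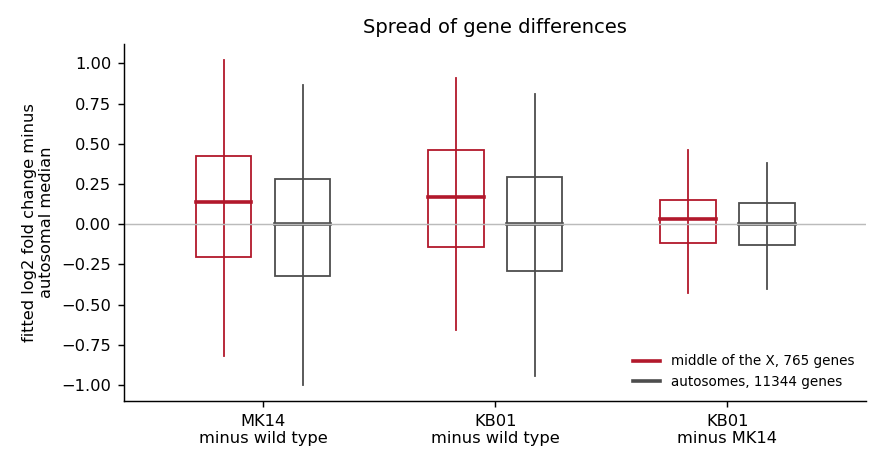
Fitted log2 fold change of each gene minus the autosomal median (vertical axis) for the 3 comparisons, with members in red and autosomal genes in grey. Thick lines mark the medians, boxes the 25th to 75th percentiles and thin lines the 5th to 95th, and the members sit higher by 0.14, 0.17 and 0.031.

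Single genes were called in both directions. Against wild type, 30 members (3.92%) were called higher in MK14 at an edgeR adjusted p under 0.05, where 3.23% of all 13425 genes tested were, and 37 members (4.84%) were called lower, where 7.11% of all genes were. In KB01 16 members (2.09%) were called higher and 26 (3.4%) lower, against 1.88% and 4.98% of all genes. The shares called higher were therefore near those of the whole genome, and the shares called lower were below them. Overlap with genes not on the same strand, described below, was less frequent among members than on the autosomes, and its part was not tested. With the library name prefix as a term in the fit, 0 higher and 1 lower were called in MK14, and 0 higher and 4 lower in KB01. Wild type and MK14 have different prefixes throughout, so this term rests on KB01 replicate 3 against KB01 replicates 1 and 2 alone. The excess of the middle of the X over the autosomes in that fit was 0.18 in MK14 and 0.21 in KB01. With the stage index as a term the numbers called higher were 7 and 3, and those called lower 41 and 18. Leaving out wild-type replicate 3 left 0 called higher in both comparisons.

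Between the transgenic strains edgeR called 0 members, against 0% of all genes. By edgeR, 12 of the 765 members had an unadjusted p under 0.05, as did 107 of the 11344 autosomal genes. On the rest of the X it was 9 of 690 genes on the left and 7 of 618 on the right. DESeq2 called 0 members. Counting libraries rather than tests, 216 members (28.2%) were higher in every KB01 library than in any wild-type library, against 18.6% of all genes, and 119 (15.6%) were lower, against 21.6%. For MK14, 104 members (13.6%) were higher and 103 (13.5%) lower throughout, against 10.6% and 17.6% of all genes. In KB01 against MK14, 34 (4.44%) were higher and 7 (0.915%) lower throughout, against 2.82% and 1.5%.

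Of the gene lists examined, which were made with earlier results of these data known, muscle genes had the largest number of calls. Of the 10 members on a list of muscle and pharynx genes, 3 were called higher in MK14 and 4 in KB01 against wild type and none lower. Of all 13425 genes tested, 3.23% and 1.88% were called higher. The median log2 fold change of the list was 0.64 in each comparison, against 0.11 and 0.12 over all members and -0.013 and -0.030 over all genes tested. The list was called in neither direction between the transgenic strains (median 0.087). The late-embryo markers, which are autosomal and mix muscle with epidermis, overlapped wild type in MK14 and were above it in every KB01 library, as mean log2 CPM. Their part in the result was not tested beyond the term in the fit given above.

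The troponin I gene unc-27 (ZK721.2, X: 8789401 to 8790568), whose product is part of the calcium switch of body wall muscle, gave 108, 132 and 116 CPM in wild type, 241, 372 and 183 CPM in MK14 and 297, 204 and 260 CPM in KB01. All transgenic libraries were above all wild-type libraries, MK14 replicate 2 the most. Lack of overlap was asked of genes named for their smallest adjusted p (unc-27, and tni-1 in KB01), so there it adds nothing to the calls. The log2 fold change was 1.16 ± 0.23 in MK14 (edgeR adjusted p = 0.0103) and 1.09 ± 0.23 in KB01 (edgeR adjusted p = 0.0158). A second troponin I gene, tni-1 (F42E11.4, X: 11375816 to 11377406), gave 175, 202 and 177 CPM in wild type, 298, 411 and 236 CPM in MK14 and 343, 296 and 346 CPM in KB01. It too was higher in every transgenic library, by 0.77 ± 0.18 and 0.83 ± 0.18 on the log2 scale (edgeR adjusted p = 0.0209 and 0.019). With the stage index as a term unc-27 was at 0.60 in MK14, still called, and at 0.54 in KB01, not called, and tni-1 was at 0.36 and 0.43 and called in neither.

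The troponin T gene tnt-2 (F53A9.10, X: 8721505 to 8723500) was called in MK14 alone, and the strains were not shown to differ. It gave 48.5, 50.2 and 38.8 CPM in wild type, 83.6, 199 and 56.2 CPM in MK14, and 139, 73.5 and 117 CPM in KB01, so the same libraries were high as for unc-27. Its log2 fold changes were 1.31 ± 0.37 and 1.26 ± 0.37 (edgeR adjusted p = 0.0463 and 0.0634), and with the stage index as a term the first was 0.17 (edgeR adjusted p = 0.592). Without MK14 replicate 2 it was 0.61 (edgeR adjusted p = 0.129), and of 19 alternatives 14 lost the call, with an adjusted p from 0.00203 to 0.592. The muscle potassium channel gene twk-18 and lev-9, whose product gathers acetylcholine receptors at the neuromuscular junction, were called higher in KB01, by 0.70 ± 0.18 and 0.98 ± 0.26 (edgeR adjusted p = 0.0391 and 0.0424), and with the stage index as a term they were at 0.34 and 0.63 and not called. The troponin T gene mup-2, the most strongly expressed of the list at a mean of 592 TPM, gave 505, 564 and 469 CPM in wild type, 660.4, 1042 and 499 CPM in MK14 and 882, 523 and 864 CPM in KB01. Its groups overlapped and it was not called.

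Cuticle collagens formed the other group with several calls. Of 15 col- genes listed in the region 11 were members, of which 2 were called higher in MK14 and 3 in KB01 and none lower, with median log2 fold changes of 0.86 and 0.89. Over all members these medians were 0.11 and 0.12, over all genes tested they were -0.013 and -0.030, and 3.23% and 1.88% of all genes tested were called higher. Collagen genes resemble each other in sequence, so reads may have been split between them. The collagen gene col-180 (C44C10.1, X: 11711244 to 11712213) had the smallest adjusted p of all members called higher in both comparisons. It gave 34.31, 28.53 and 34.03 CPM in wild type, 73.9, 138 and 52.9 CPM in MK14 and 115, 81.6 and 89.1 CPM in KB01. Every transgenic library exceeded every wild-type library, as the rule for naming it required. The log2 fold changes were 1.45 ± 0.28 and 1.56 ± 0.28 (edgeR adjusted p = 0.00966 and 0.0075). The calls were kept with the stage index as a term, at 0.77 and 0.93.

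The remaining collagen calls were col-177, higher in MK14 by 0.86 ± 0.24 and in KB01 by 0.89 ± 0.24 (edgeR adjusted p = 0.0438 and 0.0459), and col-172, higher in KB01 by 0.75 ± 0.20 (edgeR adjusted p = 0.0473). These calls lay near the threshold: of 19 alternatives, 12 and 11 lost the col-177 call in MK14 and KB01 and 11 that of col-172. The replicate block was among them (edgeR adjusted p = 0.0746, 0.0687 and 0.0646, where the alternatives ran from 0.00778 to 0.457, 0.00463 to 0.276 and 0.00437 to 0.33). The most strongly expressed collagen gene of the region, col-167 (mean 396 TPM), gave 91.1, 97.3 and 88.0 CPM in wild type, 109, 277 and 79.7 CPM in MK14 and 179, 103 and 185 CPM in KB01. MK14 replicate 2 stood out and replicate 3 was below wild type, and the gene was not called.

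Other genes called higher have varied roles. The gene clik-2 (C53C9.2, X: 7686595 to 7689168), which encodes a protein with calponin-like repeats, gave 25.01, 29.07 and 23.97 CPM in wild type, 88.6, 159 and 41.5 CPM in MK14 and 100.3, 48.6 and 78.9 CPM in KB01. It was higher in every transgenic library, as the rule for naming it required in MK14. The log2 fold changes were 1.89 ± 0.39 and 1.54 ± 0.38 (edgeR adjusted p = 0.0118 and 0.0344). With the stage index as a term it was higher by 0.80 in MK14, still called, and by 0.51 in KB01, not called. The glutamate transporter gene glt-4 (X: 6403385 to 6406876) gave 4.42, 3.65 and 3.84 CPM in wild type, 11.2, 15.4 and 5.65 CPM in MK14 and 11.4, 8.19 and 9.92 CPM in KB01, with log2 fold changes of 1.45 ± 0.31 and 1.30 ± 0.31 (edgeR adjusted p = 0.0147 and 0.0291). With the stage index as a term glt-4 was at 0.80 and 0.69 and called in neither. F29G6.1 was called in MK14, at 1.41 ± 0.31 (edgeR adjusted p = 0.0166), and not in KB01 (edgeR adjusted p = 0.0561), and with the stage index as a term it was at 0.81 in MK14 and not called.

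The genes sma-5 and C14H10.3 were called higher in both comparisons with smaller differences. The gene sma-5, which encodes a mitogen-activated protein kinase needed for full body size, gave 52.3, 57.1 and 52.4 CPM in wild type, 78.8, 91.0 and 68.7 CPM in MK14 and 82.0, 77.4 and 79.7 CPM in KB01. Its log2 fold change was 0.56 ± 0.13 in each comparison (edgeR adjusted p = 0.0216 and 0.0276). It was the only one of the 6 members on the list of cuticle and epidermis genes to be called, and the list's medians of 0.015 and -0.025 were below those of all members. Over all genes tested, 3.23% were called higher in MK14 and 1.88% in KB01. C14H10.3 (X: 10220580 to 10228076) gave 57.6, 67.4 and 50.1 CPM in wild type, 91.7, 108 and 76.8 CPM in MK14 and 98.8, 94.3 and 109 CPM in KB01, and was higher by 0.66 ± 0.16 and 0.79 ± 0.16 (edgeR adjusted p = 0.0228 and 0.0134). In the fit with the stage index sma-5 was at 0.37 in each comparison and called in neither, while C14H10.3 was at 0.37 in MK14, not called, and at 0.48 in KB01, called.

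**Figure D5:**
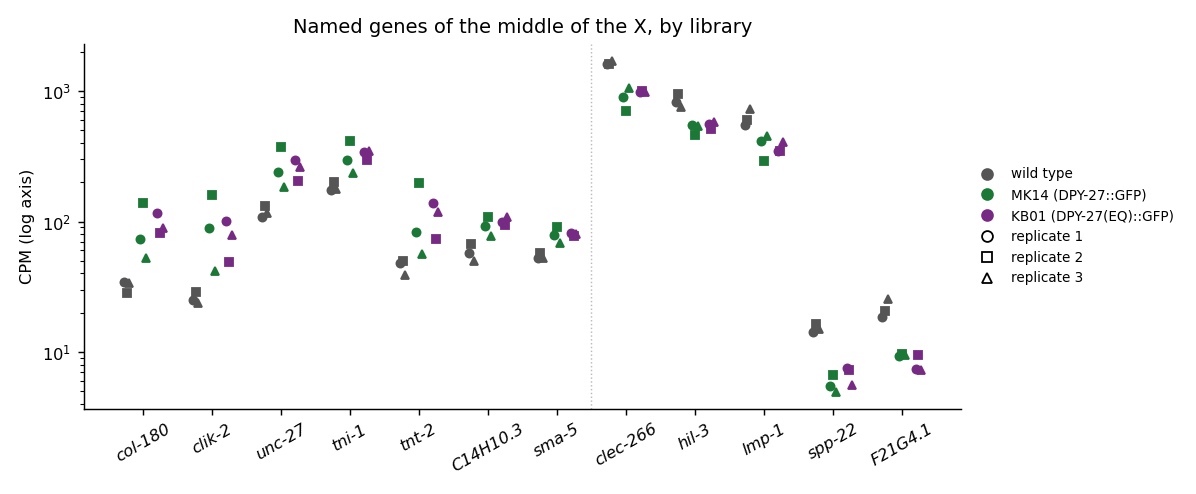
CPM on a log axis (vertical) for 12 named members (horizontal axis), 1 point per library and 1 colour per strain, with genes called higher left of the dotted line and genes called lower right of it. All wild-type libraries lie below all transgenic ones for the 7 genes on the left and above them for the 5 on the right. For the genes named by smallest adjusted p, such lack of overlap was part of the choice.

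Of 14 members on the list of neuronal genes, syd-2 alone was called, higher in MK14 by 0.47 ± 0.13 (edgeR adjusted p = 0.0353), and none was called in KB01. The gene encodes liprin-alpha, a scaffold of the presynaptic active zone, and gave 174, 190 and 156 CPM in wild type, 265.8, 218.4 and 235.9 CPM in MK14 and 217, 213 and 219 CPM in KB01. Both transgenic groups were above wild type. The median log2 fold change of the list was 0.45 and 0.43, against 0.11 and 0.12 over all members. Among all genes tested, 3.23% were called higher in MK14 and 1.88% in KB01. In the fit with the stage index syd-2 was at 0.46 and not called.

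Of the neuropeptide genes, the 7 flp- members included no call. Among 6 members of the nlp- family nlp-57 was called lower, by -1.43 ± 0.31 and -1.25 ± 0.30 (edgeR adjusted p = 0.016 and 0.0292), from 3.44, 5.17 and 3.32 CPM in wild type to at most 1.60 CPM in MK14 and 2.01 CPM in KB01. The list medians were -0.11 and -0.087 for flp- genes and -0.13 and 0.025 for nlp- genes. Over all genes tested, 3.23% were called higher and 7.11% lower in MK14, and 1.88% and 4.98% in KB01. The nuclear hormone receptor gene nhr-120 was called higher in MK14, by 0.95 ± 0.24 (edgeR adjusted p = 0.0298), the only call among 4 nhr- members. With the stage index as a term nhr-120 was at 0.53 and not called (edgeR adjusted p = 0.16), and 8 of 19 alternatives lost the call. None of the 3 ceh- homeobox members was called, and no gene of the rpl- or rps- families of ribosomal proteins lies in the region.

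The region also holds genes of sex determination and dosage compensation, and none of the 4 members was called. Calls among all genes tested were 3.23% higher and 7.11% lower in MK14, and 1.88% and 4.98% in KB01. The gene xol-1, the switch that sets male fate where it is active, gave 4.37, 4.68 and 6.17 CPM in wild type, 7.82, 3.40 and 6.23 CPM in MK14 and 4.21, 3.47 and 4.07 CPM in KB01. MK14 spanned both other strains, and all KB01 libraries were below wild type. The gene sdc-2 (X: 11522647 to 11533384), whose product recruits condensin DC to the X, gave 207, 202 and 227 CPM in wild type, 289.8, 155 and 194 CPM in MK14 and 157, 161 and 193 CPM in KB01. The KB01 libraries were again below wild type and MK14 overlapped both. Among all genes tested, 21.6% were lower in every KB01 library than in any wild-type library. Values of xol-1 and sdc-2 were chosen after being seen. The gene sex-1, a nuclear hormone receptor gene that represses xol-1, gave 279.9, 291 and 346 CPM in wild type, 317, 180.1 and 284 CPM in MK14 and 209, 231 and 269 CPM in KB01. The SMC-like gene smcl-1 ranged from 17.7 to 29.6 CPM over the 9 libraries with all strains overlapping. The medians of the 4 log2 fold changes were 0.081 in MK14 and -0.34 in KB01.

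Cell fate regulators were likewise without calls, where 3.23% and 1.88% of all genes tested were called higher and 7.11% and 4.98% lower. The list has 9 members among the 10 genes it places in the region, with medians of 0.041 and 0.18. The intestinal GATA factor gene elt-2 gave 27.98, 28.41 and 27.81 CPM in wild type, 39.1, 30.0 and 31.9 CPM in MK14 and 30.8, 33.2 and 33.6 CPM in KB01. Its libraries did not overlap with wild type but it was not called (edgeR adjusted p = 0.26 and 0.367). Among all genes tested, 10.6% in MK14 and 18.6% in KB01 were higher in every library than in wild type, and elt-2 was chosen after being seen. The neural progenitor factor gene sox-2, the most strongly expressed of the list at a mean of 157 TPM, ranged from 201 to 207 CPM in wild type, 152 to 182 CPM in MK14 and 168 to 185 CPM in KB01 and was not called. The yolk protein gene vit-1, at a mean of 1.14 TPM, was not called either.

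Of the 10 most strongly expressed members, 3 were called, all of them lower in both comparisons with wild type. Of all 13425 genes tested, 7.11% were called lower in MK14 and 4.98% in KB01. By mean TPM the 10 were led by clec-266, a C-type lectin gene (2383 TPM), eef-1A.2, a translation elongation factor gene (2123 TPM), ftt-2, a 14-3-3 protein gene (1848 TPM), hsp-3, which encodes a chaperone of the endoplasmic reticulum (1048 TPM), and hil-3, a linker histone gene (882 TPM). The gene clec-266 (X: 6617404 to 6622855) gave 1602, 1613 and 1708 CPM in wild type, 903, 708 and 1055 CPM in MK14 and 978, 990.1 and 975 CPM in KB01. Every transgenic library was lower, by -0.89 ± 0.15 and -0.74 ± 0.15 on the log2 scale (edgeR adjusted p = 0.00415 and 0.0134).

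The linker histone gene hil-3 (X: 8159105 to 8160037) gave 818, 946 and 758 CPM in wild type, 545, 459 and 543 CPM in MK14 and 561, 509 and 580.1 CPM in KB01, with log2 fold changes of -0.71 ± 0.14 and -0.61 ± 0.13 (edgeR adjusted p = 0.00885 and 0.0205). The lysosomal membrane protein gene lmp-1 (X: 6376401 to 6377651) gave 550.1, 601 and 722 CPM in wild type, 412, 289.6 and 451 CPM in MK14 and 345, 346 and 406 CPM in KB01, with -0.70 ± 0.17 and -0.77 ± 0.17 (edgeR adjusted p = 0.027 and 0.0232). The libraries of wild type and of the transgenic strains did not overlap for either gene. In the fit with the stage index lmp-1 was at -0.42 and -0.44 and called in neither comparison, and clec-266 and hil-3 stayed called in MK14 but not in KB01, where they were at -0.49 and -0.61. The other 7 of the 10 most strongly expressed members (eef-1A.2, ftt-2, hsp-3, F46H5.3, mup-2, F13E6.1 and the protein disulfide isomerase gene pdi-6) were not called.

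The members called lower with the smallest adjusted p were genes with almost no reads outside wild type. The gene gcp-2.3 (C35C5.11, X: 11542063 to 11545329), annotated as a pseudogene, had 510, 454 and 650 counts in wild type, 2, 1 and 1 in MK14 and 0, 1 and 0 in KB01. Against a floor of 3 counts per library it was at least 73.1-fold and 93.9-fold lower. The pseudogene irld-13 (R03G5.3, X: 7800394 to 7805851) had 224, 138 and 227 counts in wild type, 1, 1 and 1 in MK14 and 4, 3 and 10 in KB01, at least 26.2-fold lower in MK14. F14F3.5 (X: 10527940 to 10529189) had 118, 99 and 116 counts in wild type, 0, 2 and 2 in MK14 and 0, 1 and 1 in KB01, at least 15.1-fold and 19.4-fold lower. KB01 replicate 3, which has the library name prefix of wild type, was likewise far below every wild-type library at all 3 genes. Lack of overlap with wild type was part of the choice of these genes.

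These genes share their span with a neighbour of higher mean count (not scaled for gene length or library size). The span of gcp-2.3 overlaps by 280 bases that of the selenoprotein T-like gene selt-1.1, whose mean count is 11.1 times its own. That of F14F3.5 overlaps git-1 by 436 bases (28.5 times), and that of irld-13 overlaps R03G5.7 by 220 bases (5.09 times). F09B9.5 (X: 10154764 to 10157098), with 18.3, 23.2 and 23.7 CPM in wild type, 3.97, 7.80 and 3.48 CPM in MK14 and 6.05, 3.99 and 5.85 CPM in KB01, overlaps erd-2.1 by 300 bases (12.3 times). F21G4.1, lower by -1.18 ± 0.19 and -1.42 ± 0.19 (edgeR adjusted p = 0.00324 and 0.000903), overlaps the transporter gene mrp-4 by 390 bases (6.35 times). Unless the counting used strand, reads of such partners cannot be told apart, and whether it did is not given in the sources used here.

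Over all members, 123 of 765 (16.08%) overlap the span of a gene not on the same strand, against 2527 of 11344 autosomal genes kept (22.28%). Of the 37 members called lower in MK14 12 did (32.4%), and of the 26 called lower in KB01 11 did (42.3%). Of the members called higher, 5 of 30 and 0 of 16 did. Reads on no annotated feature, per read on a gene, stood at 1.04 to 1.09 in the wild-type libraries, 0.0346 to 0.0407 in MK14 and 0.0375 to 0.0826 in KB01. Strain and this difference between libraries cannot be told apart in any comparison with wild type. Its part in the lower calls was not tested. Without all overlapped genes the excess of the middle of the X over the autosomes was 0.14 and 0.17, as before.

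Among the genes called lower with no such overlap, spp-22 (ZK867.3, X: 7211664 to 7212500), of the saposin-like family, had the smallest adjusted p in MK14. It gave 14.3, 16.3 and 14.9 CPM in wild type, 5.54, 6.70 and 4.93 CPM in MK14 and 7.501, 7.351 and 5.606 CPM in KB01. All transgenic libraries were below all wild-type libraries, as the rule for naming it required in MK14. The log2 fold changes were -1.40 ± 0.21 and -1.17 ± 0.20 (edgeR adjusted p = 0.00173 and 0.00558).

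Between the transgenic strains the members with the smallest p were irld-13, at 1 count in each MK14 library, and lpr-5. The lipocalin gene lpr-5 (X: 11062066 to 11064474), of a family needed for the apical matrix of epithelia, gave 258, 306 and 271 CPM in MK14 and 351, 341 and 362 CPM in KB01. Every KB01 library was higher, by 0.34 ± 0.12 on the log2 scale, and the gene was not called (edgeR adjusted p = 1). Wild type, at 308, 329 and 283 CPM, overlapped MK14.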

How the data were processed

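The authors aligned reads to WS220 and deposited unnormalized counts of reads on each gene (HTSeq 0.6.1p1, per the labels), which were identical to a merged table, and TPM values with gene positions (Cufflinks 2.2.0). Deposited starts were raised by 1 to be 1-based. A pair of deposited tables, not used here, holds mean values, fold changes and p-values of each transgenic strain against wild type. Of the sample columns 0 were unused. Symbols came from the WBcel235 annotation (990 of the 1021 genes matched).

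Rows naming no gene were left out. The 13425 genes with 10 or more counts in 3 or more libraries were normalized by TMM and fitted together by quasi-likelihood in R 4.3.3 (limma 3.58.1, edgeR 4.0.16). Log2 CPM used a prior count of 2. DESeq2 1.42.0 was an alternative, and others changed the filter, reference, boundaries, pseudocount (1 and 0.1 on log2 TPM), covariates and libraries. Exact permutation used SciPy 1.17.1 and figures matplotlib 3.10.9. Tested on simulated counts of 13425 genes, true shifts of 0, 0.1 and 0.3 were estimated as -0.007, 0.096 and 0.294.

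Members, gene lists and markers were chosen with earlier results of these data known. The genes named are the 5 called higher and 5 lower with the smallest adjusted p and no overlap of libraries in each comparison with wild type, the 2 smallest p between the transgenic strains, the 10 highest mean TPM, and list members called or highest in TPM. Values of xol-1, sdc-2, smcl-1 and elt-2 are given outside this rule and were chosen after being seen. Floors of 3 counts cover counting error only.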

Additional observations from a re-analysis of the deposited data

How the results depend on the processing

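The excess of the middle of the X over the autosomes kept its direction in both comparisons with wild type under every alternative but one. With the stage index as a term it was -0.078 and -0.034, and the middle minus the right of the X was -0.0056 in MK14. Leaving out each library in turn gave 0.033 to 0.22 (MK14), 0.11 to 0.22 (KB01) and -0.055 to 0.14 (between the transgenic strains). The middle minus the right of the X between the transgenic strains turned to 0.0031 with 10 counts asked in all 9 libraries, 0.017 with the library name prefix as a term and 0.0071 with a replicate block in a fit of the 2 strains alone, and ran from -0.043 to 0.042 with a library left out. The steps above 0 ran from 58.3% to 100%, 91.7% to 100% and 16.7% to 100% with a library left out. The cause was not tested for any of these.

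Counts of called members moved most. With a library left out they ran from 0 to 128 higher and 11 to 58 lower in MK14 and from 0 to 82 higher and 6 to 41 lower in KB01. In a fit of the 2 strains alone they were 6 higher and 22 lower in MK14 and 131 higher and 50 lower in KB01. DESeq2 called 73 and 57 higher. Without a filter 37 were called higher in KB01, and with 10 counts in all libraries 8. With the prefix as a term 0 higher and 1 lower, and 0 higher and 4 lower, were called, and with the stage index 7 and 3 higher. Without overlapped members 15 were called lower in KB01. KB01 minus MK14 for dpy-27, at -0.044, was 0.027 with the stage index as a term and ran from -0.32 to 0.11 with a library left out. The alternatives for overlapped genes, the autosomal stretch, the stage index in counts and the block for 2 strains were added after seeing the data.

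Equal replicate numbers were not taken as pairs: their correlations were 0.0716, 0.359 and 0.415 for MK14 and wild type (each MK14 library correlated best with its own number, a hint from the data, not the design), -0.222 to 0.0163 for KB01 and wild type and -0.422 to -0.115 between the transgenic strains. With a replicate block 18 members were called higher in MK14 and 16 lower in KB01, and with the block in a fit of the 2 strains alone 61 and 93 were called higher. The shift with the block was 0.13 and 0.17.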

Other observations

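Of the 256 genes of the middle of the X left out for low counts, 12 had no read in any library and 67 had at most 3 in every library, while 82 reached 10 counts in at least 1 library.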
